A study of Homo sapiens with 6 samples.

Results

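The family of miR-148 and miR-152 was followed in small RNA libraries of the MIO-M1 line, which is an established line of human Müller glia, and of the extracellular vesicles (EV) that the line released. The members were the rows named hsa-miR-148a-3p, hsa-miR-148a-5p, hsa-miR-148b-3p, hsa-miR-148b-5p and hsa-miR-152-3p (the species prefix is left out from here on), 5 of the 2576 mature miRNAs listed in every count table. The family was chosen by its level in EV against whole cells in these same libraries, so its values and calls in that contrast are a description, with no p given for a member and no support drawn from them. All samples were of the WT genotype and of this single line, grown in DMEM with fetal calf serum, and the EV came from supernatants of washed, serum-free cultures, cleared by rounds of centrifugation. Whole cell replicates 1, 2 and 3 were passages 22, 24 and 26, and EV replicates 1, 2 and 3 were passages 23, 25 and 27. The replicates are passages of 1 line, so the spread between them is not a spread between donors. RNA of cell pellets and RNA of EV were extracted with different kits, and in these libraries the kit and the sample type cannot be told apart.

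A mature miRNA guides the Argonaute protein to messenger RNAs, mainly by pairing of its seed, bases 2 to 8 from the 5′ end, with sites in the target. Each precursor hairpin can give a product from its 5′ side (5p) and from its 3′ side (3p), and usually one of them is kept and the other degraded. miR-148a-3p, miR-148b-3p and miR-152-3p share a seed, and members of the family are known for repressing the DNA methyltransferases DNMT1 and DNMT3B, enzymes that maintain and set cytosine methylation. Vesicle-borne miRNA is described here as a share of the miRNA counts of a library, so fewer vesicles and less RNA per vesicle cannot be told apart.

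The sequences of the 3p members are shown because the comparison between members turns on RNAs that are alike almost from end to end. They were taken from RefSeq (GRCh38.p14), which held 4 of the 5 members, are written 5′ to 3′, and have the seed in capitals.
miR-148a-3p: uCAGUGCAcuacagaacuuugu
miR-148b-3p: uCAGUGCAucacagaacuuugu
miR-152-3p: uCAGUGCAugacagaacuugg
Counted from 1 at the 5′ end, miR-148b-3p differed from miR-148a-3p by C9U and U10C, so that 20 of 22 bases were identical. miR-152-3p differed from miR-148a-3p by C9U, U10G and U20G over its 21 bases, and from miR-148b-3p by C10G and U20G. Among the 2262 listed miRNAs with a RefSeq sequence, the seed CAGUGCA stood at bases 2 to 8 in 3, these 3 members. The number of mismatches allowed in alignment is not given in the sources used here, so reads with sequencing errors at these positions could have been shared between members. The 5p product of the miR-148b hairpin has another seed.
miR-148b-5p: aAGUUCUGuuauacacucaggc

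In GRCh38.p14, miR-148a-3p lies at chr7:25949922-25949943 on the minus strand, miR-148b-3p at chr12:54337278-54337299 on the plus strand and miR-152-3p at chr17:48037174-48037194 on the minus strand. By the GENCODE 29 annotation, the mature miR-148b-3p lies within COPZ1 and the mature miR-152-3p within COPZ2, outside exons. These are genes of paralogous coat protein subunits. miR-148b-3p also lies within the sense-overlapping gene AC078778.2. The mature miR-148a-3p overlapped no annotated gene other than those of miRNAs, and the nearest, the long intergenic RNA AC010719.1, was 519 bases away.

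The total count, which is the depth behind each value, lay between 396025 and 3990900 for whole cells and between 1225541 and 3134561 for EV. Whole cell replicate 1 was the shallowest library, where a count of 0 allows for 3 counts, or 7.58 CPM (counts per 1000000 counts of the library total). Whole cell libraries listed 298, 541 and 435 miRNAs with 1 to 9 counts and EV libraries 44, 28 and 25, so low counts were sparser in EV. Intervals and limits cover counting error only, since no step that removes copies of one starting molecule is named. Of the miRNAs listed as markers of Müller glia, 6 of 6, among them miR-204-5p and miR-125b-5p, were detected in all libraries. They summed to between 170621 and 188930 CPM in whole cells. In EV the same 6 summed to between 93938 and 145891 CPM, under each whole cell library. Of the 4 markers listed for retinal neurons and photoreceptors, miR-124-3p was at 0 in all 6 libraries. miR-182-5p and miR-183-5p were detected in every library, at 129 to 215 CPM and 91.8 to 99.7 CPM in whole cells. Detection in all libraries therefore does not by itself identify the cells as Müller glia.

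miR-148a-3p was the member with the largest fold change in EV against whole cells. Its counts were 437, 1575 and 454 in whole cell replicates 1 to 3, or 1103, 395 and 363 CPM. In EV replicates 1 to 3 its counts were 16095, 25408 and 34974, or 13133, 12463 and 11158 CPM. The groups did not overlap, and the lowest EV library lay far above the highest whole cell library. The mean level was 620 ± 419 CPM (SD, n = 3) in whole cells against 12251 ± 1005 CPM (SD, n = 3) in EV. By level, the miRNA ranked 72nd, 108th and 108th in whole cell libraries and 14th, 15th and 12th in EV libraries. The fitted log2 fold change, EV against whole cells, was 4.41 (SE 0.46), a 21.3-fold higher level in EV.

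miR-148b-3p, which shares the seed, did not follow it. Its level was 1992, 1398 and 1349 CPM in whole cell replicates 1 to 3 and 720, 1136 and 1125 CPM in EV replicates 1 to 3. Every EV library lay under every whole cell library, with means of 1580 ± 358 CPM (SD, n = 3) in whole cells against 994 ± 237 CPM (SD, n = 3) in EV. The fitted log2 fold change was -0.65 (SE 0.31), a 1.57-fold lower level in EV.

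miR-152-3p had overlapping groups. Its level was 1313, 808 and 754 CPM in whole cell replicates 1 to 3 and 662, 1633 and 1314 CPM in EV replicates 1 to 3. EV replicate 1 was the lowest of all 6 libraries and the other two EV libraries the highest, with means of 958 ± 308 CPM (SD, n = 3) in whole cells against 1203 ± 495 CPM (SD, n = 3) in EV. The fitted log2 fold change was 0.33 (SE 0.37), smaller than its error.

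**Figure D1:**
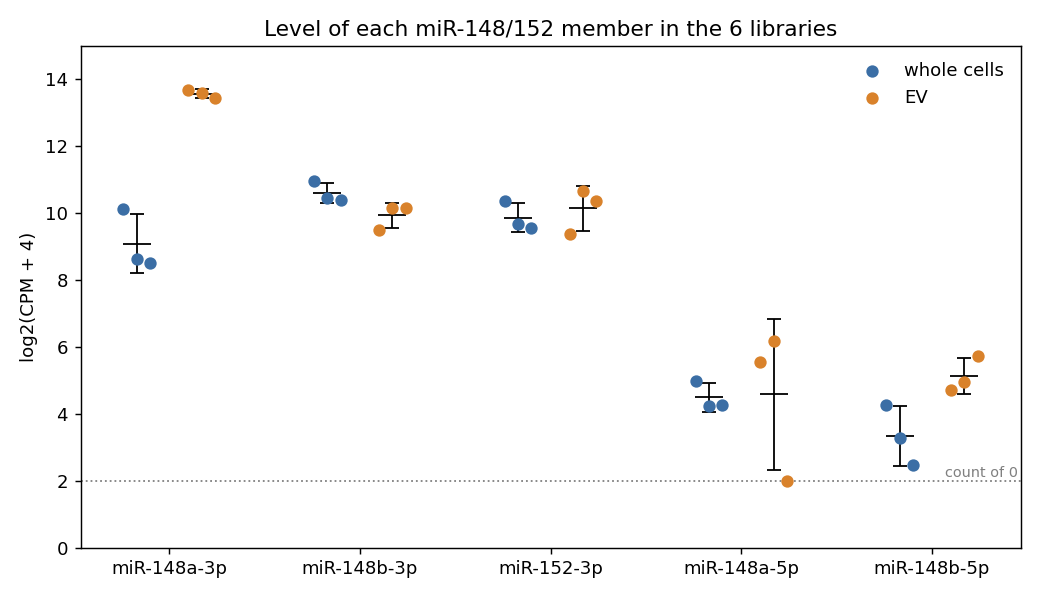
Level of each member in each library, as log2(CPM + 4) on the vertical axis, with whole cells and EV side by side, a point per library, bars for the mean ± SD (n = 3) and a dotted line at a count of 0. miR-148a-3p is the member whose EV points stand far above its whole cell points, while miR-148b-3p and miR-152-3p stay near the same height.

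The 5p members were present at low levels. miR-148a-5p had 11, 59 and 19 counts in whole cell replicates 1 to 3, or 27.8, 14.8 and 15.2 CPM. In EV replicates 1 and 2 it had 53 and 141 counts, or 43.2 and 69.2 CPM, and in EV replicate 3 it was at 0. By counting error alone, this 0 allows up to 0.957 CPM. Low counts were sparse in that library, with a first decile of 24.8 over the counts above 0, so the limit may be too low. EV libraries lay on both sides of the whole cell libraries, and the fitted log2 fold change of 0.92 had an SE of 1.73 and was 0.19 without EV replicate 2. miR-148b-5p had 6, 23 and 2 counts in whole cell replicates 1 to 3, or 15.2, 5.76 and 1.60 CPM, and 27, 55 and 153 counts in EV replicates 1 to 3. Its mean level was 7.50 ± 6.94 CPM (SD, n = 3) in whole cells against 32.6 ± 14.2 CPM (SD, n = 3) in EV. All EV libraries lay above all whole cell libraries, with a fitted log2 fold change of 2.31 (SE 1.17) that rests on few counts in whole cells. miR-152-5p, the other product of the miR-152 hairpin and not a member, had 1, 12 and 3 counts in whole cells and 0 in each EV library.

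Levels of the members are set side by side without scaling by length, since the sequenced RNAs are 21 or 22 bases long where their sequence was at hand. In each whole cell library the order from high to low was miR-148b-3p, miR-152-3p, miR-148a-3p, miR-148a-5p and miR-148b-5p. The ranges of the neighbours miR-152-3p and miR-148a-3p overlapped, as did those of the 5p members, whereas those of miR-148b-3p and miR-152-3p did not. In EV, miR-148a-3p came first in each library with no overlap, miR-152-3p was above miR-148b-3p in 2 of 3 libraries with overlapping ranges, and the 5p members came last with overlapping ranges.

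All 5 members passed the filter, 5 CPM or more in 3 or more libraries, as did 430 miRNAs in all. A call required an adjusted p under 0.01 and a log2 fold change of 2.5 or more in either direction in edgeR's quasi-likelihood test, which was so for 25 miRNAs (5.81%), 19 of them higher in EV (4.42%) and 6 lower (1.4%). Of the members, 1 was called higher, miR-148a-3p, and 0 lower, a count from which nothing is read since the contrast chose the family. That call was lost without whole cell replicate 3 or without EV replicate 2, where 0 miRNAs were called. Of the calls, 76.0% were higher in EV with TMM factors, but 58.3% with RLE factors, 56.8% with library totals and 52.6% with upper-quartile factors. EV libraries lay wholly above whole cell libraries in TMM-scaled CPM for 2 members, miR-148a-3p and miR-148b-5p, and for 20.9% of the 430, and wholly below for 1 member, miR-148b-3p, and for 27.4%. The median log2 fold change of the 430 was -0.23, with quartiles of -1.72 and 1.29, and RLE factors moved that median by -0.18. Relative to the median, the log2 fold change was 4.64 for miR-148a-3p, -0.42 for miR-148b-3p and 0.57 for miR-152-3p.

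**Figure D2:**
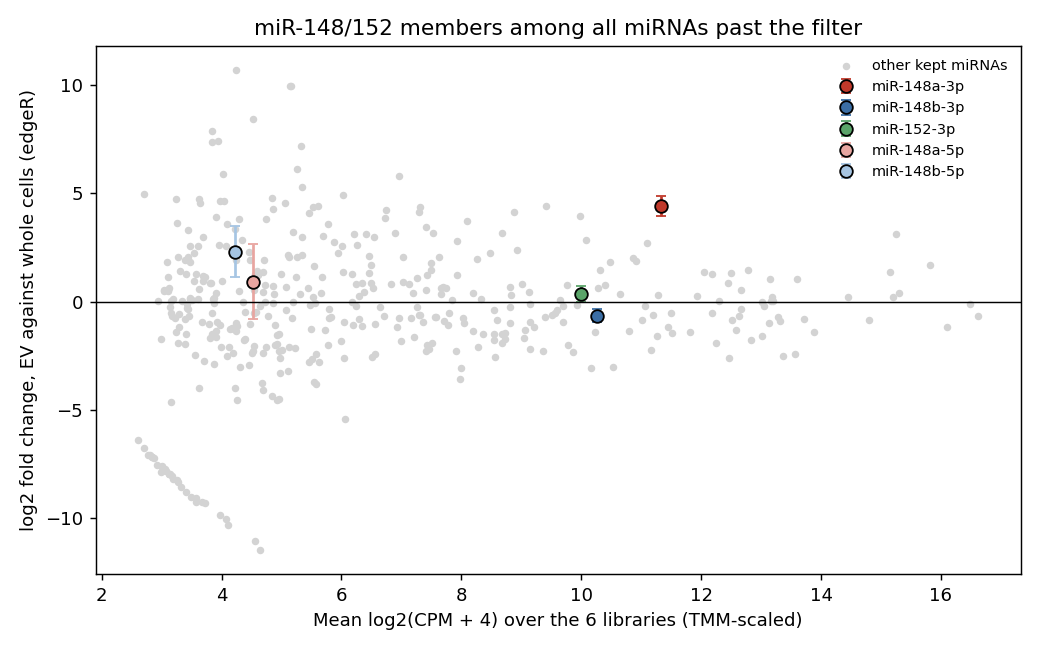
Fitted log2 fold change, EV against whole cells, on the vertical axis against mean level as log2 CPM on the horizontal axis for the 430 miRNAs kept, with the 5 members marked and their SE as bars. miR-148a-3p ranks 22nd of 430 by fold change, and the other members rank 67th or lower.

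The makeup of the family, which does not depend on scaling between libraries, differed between whole cells and EV. The shares hold the count of miR-148a-3p, on whose level the family was chosen, and so restate that level. miR-148a-3p held 24.8%, 15.1% and 14.6% of the family counts in whole cell replicates 1 to 3 and 90.1%, 81.3% and 81.8% in EV replicates 1 to 3. The groups were far apart, at 18.2% ± 5.75 (SD, n = 3) in whole cells against 84.4% ± 4.93 (SD, n = 3) in EV. miR-148b-3p held 50.8% ± 5.27 (SD, n = 3) of the family counts in whole cells, the largest share there, against 6.87% ± 1.72 (SD, n = 3) in EV. miR-152-3p held 30.2% ± 0.679 (SD, n = 3) in whole cells against 8.28% ± 3.28 (SD, n = 3) in EV.

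**Figure D3:**
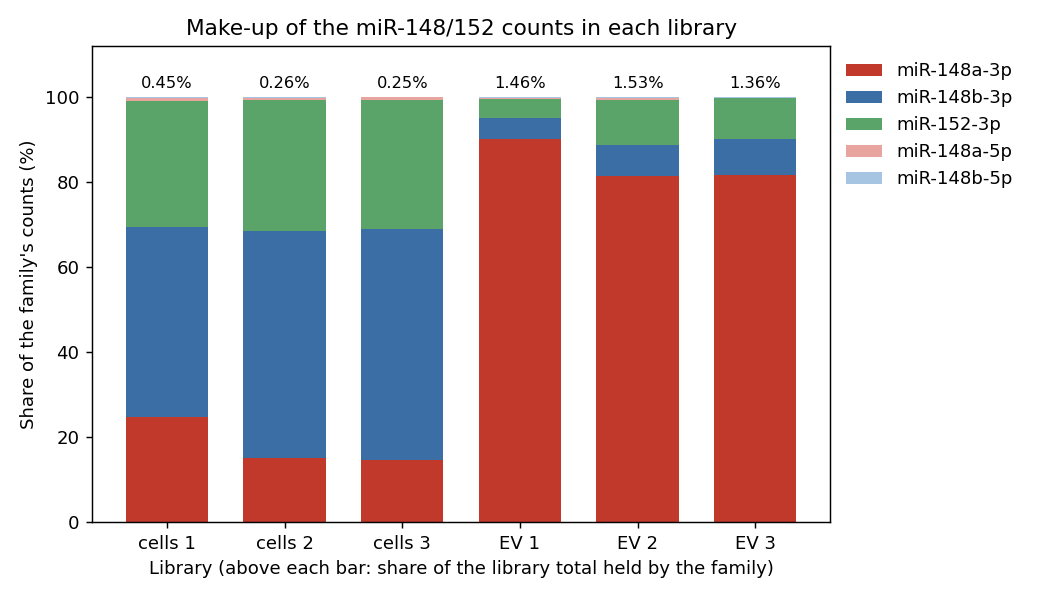
Share of the family counts held by each member, in percent, as 1 stacked bar per library, with the percent of all miRNA counts held by the family written above each bar. The miR-148a-3p segment fills between 14.6% and 24.8% of the bar in whole cells and between 81.3% and 90.1% in EV.

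The family as a whole took 0.445%, 0.262% and 0.248% of the counts of whole cell replicates 1 to 3 and 1.46%, 1.53% and 1.36% of those of EV replicates 1 to 3. Without miR-148a-3p, the family summed to 2565 ± 681 CPM (SD, n = 3) in whole cells against 2267 ± 734 CPM (SD, n = 3) in EV, and the groups overlapped. The higher family total in EV was thus carried by 1 member.

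Ratios of counts inside a library describe the same counts for pairs of members. Those with miR-148a-3p as numerator restate the level on which the family was chosen. The ratio of miR-148a-3p to miR-148b-3p was 0.554, 0.282 and 0.269 in whole cell replicates 1 to 3 and 18.2, 11.0 and 9.92 in EV replicates 1 to 3. The ratio of miR-148a-3p to miR-152-3p was 0.840, 0.488 and 0.481 in whole cells and 19.8, 7.63 and 8.49 in EV. In both ratios whole cell replicate 1 and EV replicate 1 were the highest of their groups. The ratio of miR-152-3p to miR-148b-3p was 0.659, 0.578 and 0.559 in whole cells and 0.918, 1.44 and 1.17 in EV, so that these members also parted, by a smaller step and without overlap.

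The ratio of 5p to 3p counts was lower in EV for miR-148a and higher in EV for miR-148b. For miR-148a the ratio has miR-148a-3p, on whose level the family was chosen, as its denominator, so a lower ratio restates that level. The level of miR-148a-5p itself was 19.2 ± 7.39 CPM (SD, n = 3) in whole cells against 37.5 ± 34.9 CPM (SD, n = 3) in EV, with overlapping groups. For miR-148a, the counts of the 5p arm per 100 counts of the 3p arm were 2.52, 3.75 and 4.19 in whole cell replicates 1 to 3 and 0.329 and 0.555 in EV replicates 1 and 2. In EV replicate 3 there was no 5p count beside 34974 counts of the 3p arm, which by counting error alone allows up to 0.00858 per 100. The ratio was lower in each EV library than in each whole cell library, with means of 3.48 ± 0.865 (SD, n = 3) in whole cells against 0.295 ± 0.279 (SD, n = 3) in EV. For miR-148b the ratio was 0.760, 0.412 and 0.118 in whole cell replicates 1 to 3 and 3.06, 2.37 and 4.34 in EV replicates 1 to 3. It was higher in each EV library, with means of 0.430 ± 0.321 (SD, n = 3) in whole cells against 3.26 ± 0.997 (SD, n = 3) in EV. Without EV replicate 2 the EV mean of miR-148a was 0.165, and without whole cell replicate 1 the whole cell mean of miR-148b was 0.265.

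**Figure D4:**
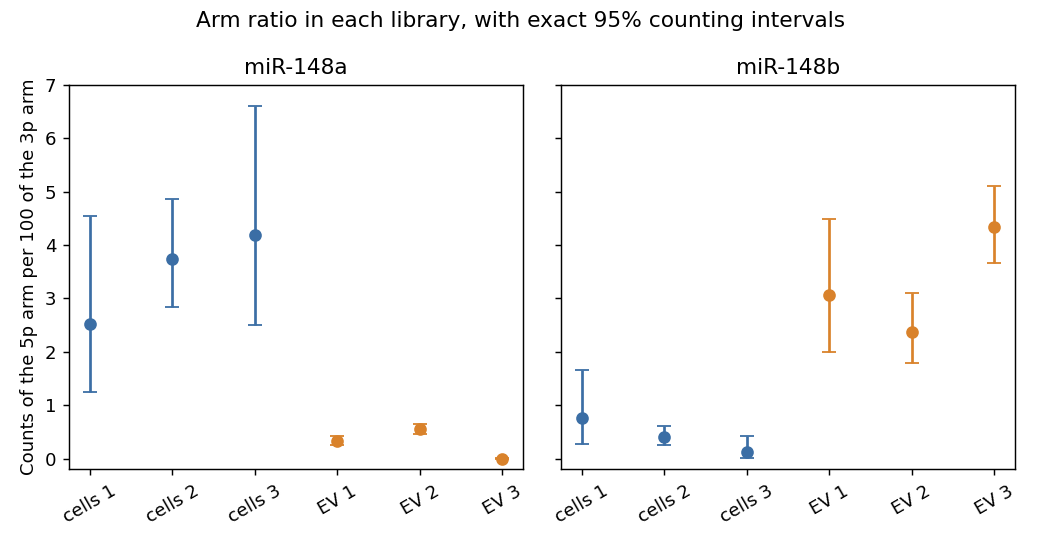
Counts of the 5p arm per 100 counts of the 3p arm in each library for miR-148a and miR-148b, with exact 95% binomial intervals (Clopper-Pearson) and, for the library with no 5p count, the limit of 3 counts. The ratio of miR-148a lies lower in EV and that of miR-148b lies higher, with no overlap between the groups.

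The spread between replicates differed between members. In EV, the SD of log2(scaled CPM + 4) over the 3 libraries was 0.24 for miR-148a-3p, at the 13.5th percentile of the 430 miRNAs, whose median was 0.84. Among the 100 miRNAs most abundant in EV, whose median was 0.50, it was the 18th smallest. In whole cells it was 0.66, at the 64.9th percentile of the 430 and the 70th smallest among the 100 most abundant there, whose median was 0.44. miR-148b-3p was the steadiest in whole cells, with an SD of 0.08 at the 2.79th percentile, and had 0.31 in EV. miR-152-3p had 0.21 in whole cells and 0.54 in EV, and miR-148a-5p, with its count of 0, had 2.21 in EV. Whole cell replicate 1 was the highest of the whole cell libraries for 5 of 5 members in TMM-scaled CPM, as it was for 36.3% of the 430 miRNAs. Without it, the log2 fold change of miR-148a-3p was 4.77 and its share of the family in whole cells was 14.8%.

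The miRNAs whose profiles were most like each 3p member were found by the root mean square difference of centred log2(scaled CPM + 4) values over the 6 libraries, which holds the contrast itself and is a description. For miR-148a-3p these were miR-136-3p at 0.21, miR-137 at 0.36, miR-29c-3p at 0.39, miR-411-5p at 0.45 and miR-101-3p at 0.47, against a median of 2.70 over the miRNAs kept. miR-136-3p and miR-137 had low whole cell means of 11.1 and 4.05 CPM, where the added 4 weighs on the values. Their fitted log2 fold changes were 4.95 and 6.11. For miR-148b-3p the 5 nearest were miR-323a-3p at 0.18, let-7g-5p at 0.25, miR-23c at 0.26, miR-21-3p at 0.28 and miR-584-5p at 0.33. For miR-152-3p they were miR-138-1-3p at 0.21, miR-7-5p at 0.30, miR-26b-5p and miR-27b-3p at 0.33 and miR-130b-3p at 0.37. No family member was among the 5 nearest of another. By likeness to miR-148a-3p, miR-152-3p ranked 125th and miR-148b-3p 195th, whereas miR-148b-3p and miR-152-3p differed from each other by 0.51. By likeness to miR-148b-3p, miR-152-3p ranked 33rd, against a median difference of 1.19 over the miRNAs kept. By likeness to miR-152-3p, miR-148b-3p ranked 16th, against a median of 1.31.

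**Figure D5:**
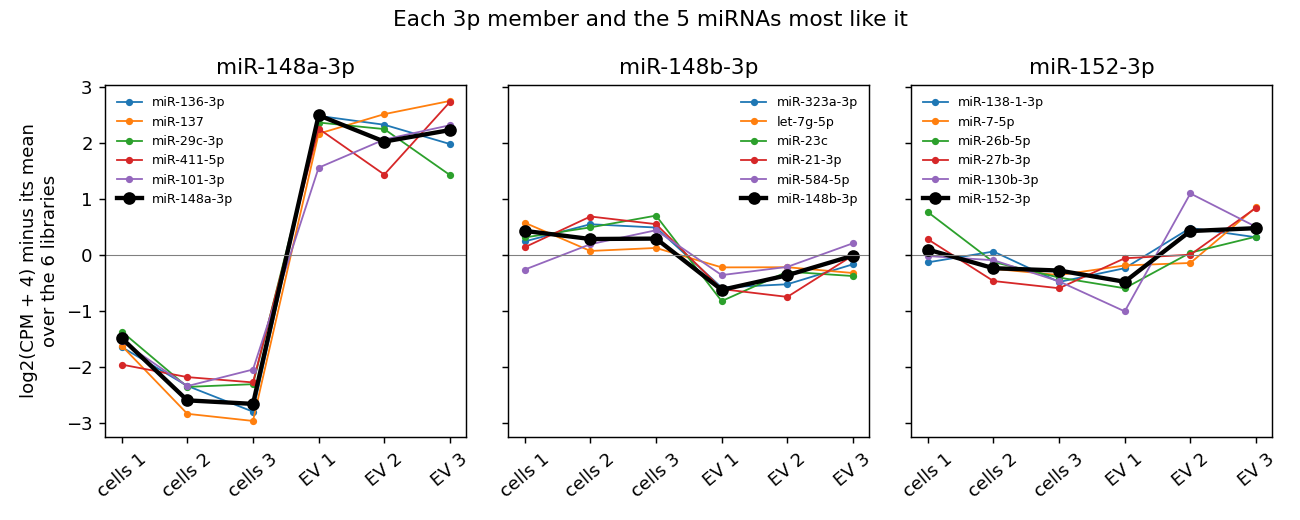
Centred log2(scaled CPM + 4) of each 3p member and of the 5 miRNAs most like it in the 6 libraries, with 1 panel per member and lines that only join the points of a miRNA. The profile of miR-148a-3p and its neighbours steps up in EV, whereas those of miR-148b-3p and miR-152-3p show no such step.

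Other miRNAs known to target DNA methyltransferases were listed for comparison, among them the miR-29 family, which targets DNMT3A and DNMT3B, and miR-101-3p and miR-143-3p, which target DNMT3A. All 8 passed the filter, 4 were called higher in EV, against 4.42% of the 430, and 0 lower, against 1.4%. None of these calls was made without whole cell replicate 3 or without EV replicate 2, where 0 miRNAs were called. Their median log2 fold change was 3.01 against -0.23 over the 430. The called ones were miR-29c-3p at 4.16 (SE 0.58), miR-101-3p at 3.97 (SE 0.39), miR-126-3p at 3.45 (SE 0.54) and miR-143-3p at 2.85 (SE 0.35). Not called were miR-29b-3p at 3.16, miR-29a-3p at 1.45, miR-185-5p at 0.31 and miR-342-3p at 0.23. EV lay wholly above whole cells for 6 of the 8, against 20.9% of the 430. The list was chosen with earlier results of these libraries known and is not independent evidence of a direction.

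The letters of the family's seed also stand at bases 1 to 7, a shift by 1 base and so with another seed, in other miRNAs. A search of the mature RefSeq sequences returned 5, among them miR-130b-3p, miR-301a-3p and miR-301b-3p. miR-130b-3p and miR-301a-3p are shown with CAGUGCA in capitals, to set beside the 3p members.
miR-130b-3p: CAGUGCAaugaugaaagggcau
miR-301a-3p: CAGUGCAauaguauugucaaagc
They were listed with miR-301b, and with miR-130a-3p and miR-454-3p, which the search did not return. The search covered only names with a RefSeq sequence, so a miRNA that was not returned may still hold these letters. Of the 5 listed, 4 passed the filter and 0 were called, against 5.81% of the 430. EV lay wholly above whole cells for 2, miR-301a-3p and miR-454-3p, against 20.9%. miR-301a-3p passed the filter only through the EV libraries, so its place above whole cells was set by the filter and nothing is read from it. Their median log2 fold change was 0.93. miR-130b-3p was at 235, 173 and 127 CPM in whole cell replicates 1 to 3 and at 87.3, 509 and 260 CPM in EV replicates 1 to 3. These groups overlapped, and EV replicate 1 was the lowest library and EV replicate 2 the highest. miR-301a-3p had 1, 3 and 0 counts in whole cells and 72, 75 and 179 in EV, and so rests on counts at the limit of detection in whole cells.

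Markers of blood cells and serum were listed because the cells were grown with serum, and their sum was higher in each EV library than in each whole cell library. The 9 listed miRNAs summed to 172, 885 and 1174 CPM in whole cell replicates 1 to 3 and to 1887, 2403 and 1779 CPM in EV replicates 1 to 3. Of the 9, 4 passed the filter and 1 was called higher, miR-142-3p, against 4.42% of the 430. With 0, 0 and 1 counts in whole cells, miR-142-3p passed the filter only through the EV libraries. Its direction was thus fixed in advance, and nothing is read from that call. The red cell miRNA miR-451a, at 0 in all whole cell libraries, also passed only through EV. miR-486-5p, with a log2 fold change of 0.78 (SE 0.70), made up most of the sum. miR-122-5p was at 7.58, 8.27 and 11.2 CPM in whole cell replicates 1 to 3, so its direction was not set by the filter. In EV replicates 1 to 3 it was at 200, 91.2 and 169 CPM, with a log2 fold change of 4.10 (SE 0.89), not called. EV lay wholly above whole cells for 4 of the 9, miR-142-3p and miR-451a among them, against 20.9% of the 430. The median log2 fold change of those past the filter was 7.02. In each EV library the sum was under the level of miR-148a-3p there, a comparison of different miRNAs from which nothing is read. Markers of retinal neurons and photoreceptors summed to between 227 and 333 CPM in whole cells and between 1151 and 1218 CPM in EV, with 3 of 4 past the filter and 0 called. The Müller glia markers, in sum, were lower in EV, with 0 of 6 called, but they did not share a direction. Their median log2 fold change was 0.08. It was -1.90 for miR-204-5p, -1.19 for miR-125b-5p and -0.86 for miR-125a-5p, against 1.06 for miR-9-5p, 1.28 for miR-99a-5p and 1.03 for miR-100-5p. EV lay wholly below whole cells for 2 of the 6 and wholly above for 0. The part of these markers in the levels of miR-148a-3p was not tested.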

How the data were processed

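Small RNA libraries of 3 whole cell and 3 EV samples were made with the QIAseq miRNA kit. The authors trimmed adapters with Cutadapt, aligned reads to miRBase and deposited the raw count of reads per mature miRNA from featureCounts 1.5.0-p1. The table headers name miRBase release 20 and Bowtie 1, the methods Bowtie2 and another release, and neither names a genome build. The labels and the methods also differ in the washes, the medium (serum-free or vesicle-depleted) and the time of conditioning before EV were collected.

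CPM was taken on each library's total. In R 4.3.3, the quasi-likelihood test of edgeR 4.0.16 was run with TMM factors and Benjamini-Hochberg adjustment over the 430 miRNAs that reached 5 CPM in 3 or more libraries. DESeq2 1.42.0, RLE factors, upper-quartile factors, library totals, no filter, an adjusted p below 0.05, thinning to the smallest library, and each library left out in turn were alternatives, as were the 3p arms only, miR-152-3p as reference, pooled arms and a pseudocount of 1 in place of 4. The fit was tested on simulated data with the seed 1. Intervals were exact (scipy 1.17.1), and figures used matplotlib 3.10.9. No library was a copy of another.

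The members and all lists were chosen with earlier results of these data known. Named miRNAs were the members, miRNAs with their seed, the 5 most alike to each 3p member, the ranked neighbours and list members. miR-301b was matched without its arm suffix. Of the 2576 names, 2262 had a RefSeq sequence. RT-qPCR and particle data were not analysed here.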

Additional observations from a re-analysis of the deposited data

How the results depend on the processing

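No member changed sign under any alternative run. The number of miRNAs called was 72 with DESeq2, 38 with upper-quartile factors, 45 without the filter and 93 at an adjusted p below 0.05, against 25. Leaving out 1 library gave between 0 and 31 calls, with 0 without whole cell replicate 3 and 0 without EV replicate 2 (edgeR, where 121 and 169 miRNAs had an unadjusted p below 0.05), 16 and 7 without whole cell replicates 1 and 2, and 11 without EV replicate 1. The number of members called ranged from 0 to 1 in these fits and was 1, miR-148a-3p, in all other alternatives. The log2 fold change of miR-148b-3p was -0.89 with DESeq2 and -0.89 with RLE factors, and from -0.90 to -0.62 with 1 library left out. With 1 library left out, that of miR-148a-3p was from 4.11 to 4.77, of miR-152-3p from 0.05 to 0.49, of miR-148a-5p from 0.19 to 1.44 and of miR-148b-5p from 1.73 to 2.88. With miR-152-3p as the reference in place of miR-148b-3p, the mean log2 ratio of miR-148a-3p in whole cells was -0.78 in place of -1.52. The cause was not tested. In the lists of 5 most alike, a pseudocount of 1 kept 3 for miR-148a-3p, 4 for miR-148b-3p and 5 for miR-152-3p.

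The groups share no passage number in the labels, so the samples were not taken as pairs and no blocked fit was run. The small counts of the 5p members, down to 2 for miR-148b-5p in whole cell replicate 3 and 0 for miR-148a-5p in EV replicate 3, limit what depth can show for them, and with 3 libraries a group the SD itself is imprecise.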

Other observations

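Ranked by mean CPM, miR-148a-3p stood between miR-1307-3p and miR-98-5p in whole cells, at rank 99, and between miR-100-5p and miR-29a-3p in EV, at rank 13. miR-148b-3p stood at rank 59 between miR-671-5p and miR-128-3p in whole cells and at rank 72 between miR-382-3p and miR-487b-3p in EV. miR-152-3p stood at rank 73 between miR-574-3p and miR-10a-5p in whole cells and at rank 67 between miR-155-5p and miR-320c in EV.

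The motifs GGAG and GGCU, both described for the sorting of miRNAs into vesicles, were searched as letters in the mature strand only. GGAG was held by 15.8% of the 2262 listed miRNAs with a sequence and GGCU by 12.5%, and by 0 of the 4 members with a sequence. The absence of these letters says nothing on any factor that binds them. The GC content was 40.9% in miR-148a-3p and in miR-148b-3p and 47.6% in miR-152-3p, against a median of 50.0% over the miRNAs kept, and the 126 miRNAs kept with a GC content between 40% and 48% had a median log2 fold change of 0.06.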
